A study of Mus musculus with 6 samples.

Results

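Nitric oxide and the natriuretic peptides both act on the vessel wall through cyclic GMP (cGMP), and 10 genes of that route were followed in mouse aorta: the nitric oxide synthase Nos3, the soluble guanylate cyclase subunits Gucy1a2, Gucy1a3 and Gucy1b3, the kinase gene Prkg1, the natriuretic peptide receptors Npr1, Npr2 and Npr3, and the phosphodiesterases Pde5a and Pde3a. They were found by symbol among the 29752 genes of each library, and all 10 were present. RNA from whole aorta of C57BL/6 mice aged 15 weeks, fed a normal diet since they were 8 weeks old (7 weeks), was sequenced in 3 libraries of wild-type animals and 3 of animals labelled PALMD+/-, that is heterozygous for Palmd (the gene of palmdelphin, which belongs with the paralemmins). The comparison asks whether the transcripts of the pathway differ between these genotypes. The sources used here do not say how the Palmd allele was made, or whether the libraries are from separate animals. The p-values therefore weigh the difference between the groups against the spread of these libraries only, and may not hold for other animals.

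Endothelial cells make nitric oxide with the enzyme encoded by Nos3. The gas crosses into neighbouring smooth muscle and binds the heme of soluble guanylate cyclase, a dimer of an alpha and a beta subunit, which then makes cGMP. Atrial and B-type natriuretic peptides reach the same messenger through Npr1, and C-type natriuretic peptide through Npr2, both of which are membrane receptors with a cyclase domain. Npr3 is the clearance receptor and has no cyclase domain. The kinase encoded by Prkg1 relaxes smooth muscle in response to cGMP. Pde5a breaks cGMP down, and Pde3a breaks down mainly cyclic AMP and is inhibited by cGMP, so that it couples both messengers.

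The genes of both main cyclase subunits lie side by side on the reverse strand of chromosome 3, separated by 17737 bases. Their ratio differed between the genotypes without overlap, but did not pass (exact permutation p = 0.1, 0.15 adjusted over 6 ratios). Whether the promoters bear on it was not tested. The promoters of this pair are shown, each as the 250 bases before a RefSeq start (build GRCm38.p6) read 5′ to 3′ along the gene. Capitals mark the GC box GGGCGG and the CCAAT box, each searched on both strands, so that a CCAAT box on the opposite strand reads ATTGG.
Gucy1a3 (RefSeq name Gucy1a1), chr3:82145651-82145900, reverse strand: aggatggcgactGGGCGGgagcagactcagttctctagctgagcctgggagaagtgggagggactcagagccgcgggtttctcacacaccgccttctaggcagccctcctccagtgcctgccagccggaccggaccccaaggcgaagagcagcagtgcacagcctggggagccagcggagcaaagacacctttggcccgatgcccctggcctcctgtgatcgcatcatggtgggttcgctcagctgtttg
Gucy1b3 (RefSeq name Gucy1b1), chr3:82074712-82074961, reverse strand: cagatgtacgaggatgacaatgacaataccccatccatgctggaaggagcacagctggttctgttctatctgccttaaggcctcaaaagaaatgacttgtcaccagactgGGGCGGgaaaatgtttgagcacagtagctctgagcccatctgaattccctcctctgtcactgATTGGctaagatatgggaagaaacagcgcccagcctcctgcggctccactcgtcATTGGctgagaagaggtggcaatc
The Gucy1a3 window held 1 GC box and no CCAAT box, and 64.0% of its bases were G or C. The Gucy1b3 window held 1 GC box and 2 CCAAT boxes, both on the opposite strand, with 51.2% G or C. RefSeq gives a second Gucy1a3 start, at whose window (chr3:82145074-82145323) neither motif was found. This second window lies within the annotated span of Gucy1a3 (chr3:82092427-82145789), and the first overlaps that span in part. The Gucy1b3 window lies wholly before the span of its gene (chr3:82032006-82074689). RefSeq windows were found for 8 of the 10 genes, 10 windows in all, of which 7 held a GC box and 5 a CCAAT box. Over all 32851 promoter windows of the same length the shares were 32.7% for the GC box and 33.8% for the CCAAT box. An E-box (CACGTG) was in 1 of the 10 windows, the one of Gucy1a2, and a TATA box (TATAAA) and a CArG box in 0 of them, against 6.02%, 12.4% and 1.47% of all windows. A match to these letters describes the sequence only.

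Depth was similar in all libraries: the authors' values correspond to 17283951 to 18372131 reads per library, so that 1 read on a 2 kb gene was worth 0.0272 to 0.0289 FPKM (reads per length of gene, scaled to the size of the library). The markers of aortic tissue were present, with the smooth muscle gene Acta2 at 3701 to 8367 FPKM, Myh11 at 612 to 1166 FPKM and the endothelial gene Pecam1 at 72.0 to 424 FPKM, while the smooth muscle marker Tagln was listed at only 2.13 to 4.29 FPKM. Heterozygote replicate 2 stood apart. Its mean correlation with the other libraries was 0.93, against 0.96 to 0.97 for the rest. Its 10 endothelial markers summed to 307 FPKM (822.9 to 905.5 in wild type, 844 and 854 in the other heterozygote libraries) and its 10 smooth muscle markers to 4864 FPKM (7247 to 10200 in wild type, 10210 and 10450). All 10 smooth muscle markers and 7 of 10 endothelial ones were lowest in it, and all 8 white adipocyte markers, all 5 Schwann cell markers and all 5 lymphocyte markers were highest in it. The endothelial marker Kdr was also highest in it, at 14.55 FPKM against 3.43 to 5.42, and Cldn5 and Emcn were neither lowest nor highest. Only 2 of the 5 lymphocyte markers were high enough to be tested, and Cd3e and Cd3g reached just 0.468 and 0.673 FPKM in that library. White adipocyte markers summed to 4954 FPKM there, to 1400 and 1963 FPKM in the other heterozygote libraries and to 1631 to 3750 FPKM in wild type. Fibroblast markers summed to 2012 to 2482 FPKM in wild type and to 2544 to 4069 FPKM in heterozygotes without overlap. Of the 8, 3 (Col1a1, Col1a2 and Col3a1) were higher in every heterozygote library, while Pdgfra, Dcn, Lum, Pi16 and Dpt overlapped. The mean log2 level of the 8 overlapped too, at 7.47 to 7.74 in wild type and 7.62 to 8.24 in heterozygotes. What part these markers have in the results below was not tested, and the fold changes are also given without heterozygote replicate 2. In whole tissue, fewer cells of a type and less RNA per cell cannot be told apart. Palmd itself had 5.49, 7.88 and 10.1 FPKM in wild type, against 5.31, 7.19 and 6.21 FPKM in the heterozygotes, so that the groups overlapped and its level does not check the genotype.

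No gene of the pathway passed the test. Of the 10 genes, 9 reached 1 FPKM in at least 3 libraries and were tested, and 0 were called by limma at an adjusted p of 0.05, as were 0% of all 12620 genes tested. The smallest adjusted p over all genes was 0.231, and 820 genes (6.5%) but none of the 9 had an unadjusted p under 0.05. Testing reads recovered from the values with limma's voom also called 0 genes. Among the 9, the log2 fold change was above 0 for 4 and below 0 for 5, with a median of -0.16, beside 53.1% above 0 and a median of 0.01 over all tested genes. Without heterozygote replicate 2, the median was 0.21 with 5 of 9 above 0, and that over all genes 0.03. The groups failed to overlap for 1 of the 9 (Nos3, lower in heterozygotes), or 11.1%, against 12.9% of all tested genes (7.8% higher and 5.12% lower in heterozygotes). Without heterozygote replicate 2 they failed to overlap for 4 of the 9, with Gucy1a3 and Npr2 higher and Nos3 and Npr3 lower, against 20.7% of all tested genes higher and 12.4% lower.

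**Figure D1:**
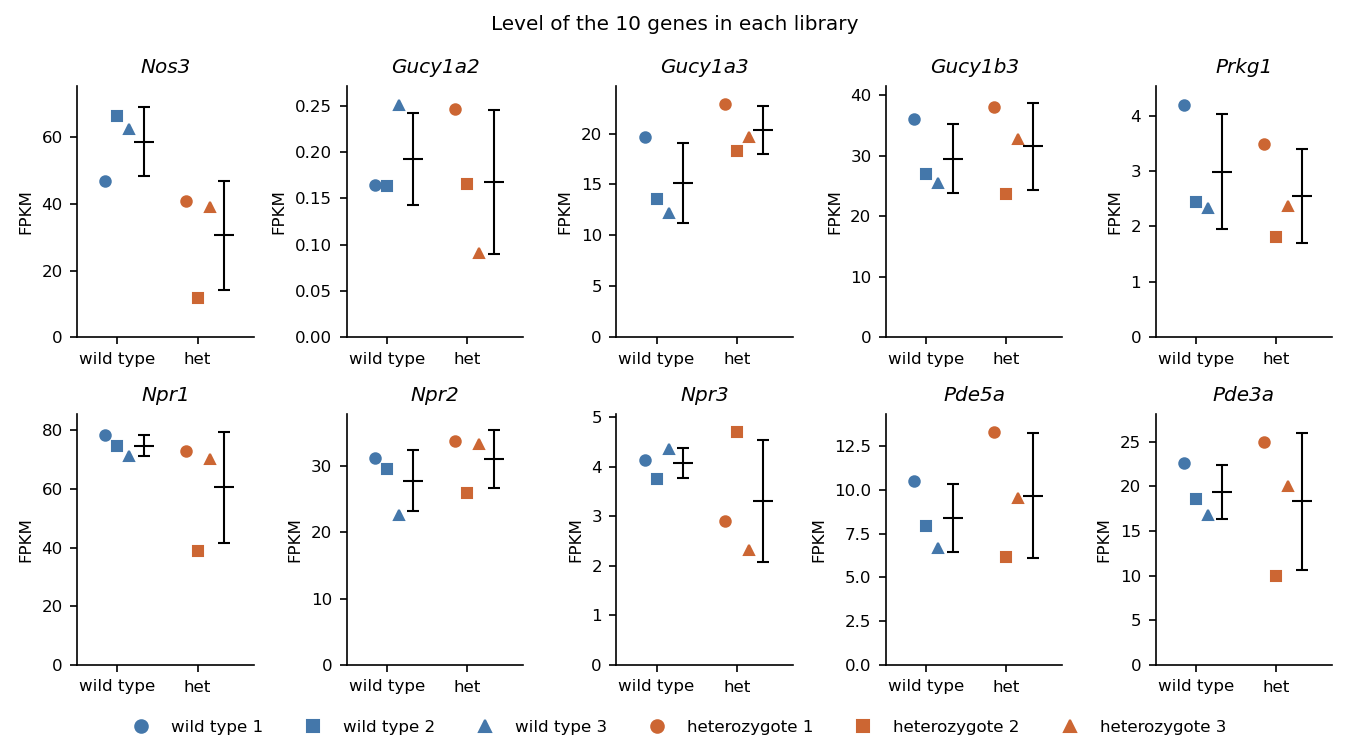
FPKM (vertical axis, from 0, different in each panel) of the 10 genes in the 3 wild-type libraries (blue) and the 3 heterozygote libraries (orange), with the mean and SD of each group in black. Nos3 is the 1 tested gene whose groups do not overlap, and heterozygote replicate 2 (orange square) is the lowest library for 6 of the 9 tested genes.

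The receptor gene Npr1 had the highest mean level of the 10 in both genotypes and Gucy1a2 the lowest. FPKM is per length, which allows levels to be set side by side, although the low listing of Tagln shows that a listed level may not be comparable for every gene. Over all 6 libraries the mean was highest for Npr1 (67.6 FPKM), followed by Nos3 (44.6), Gucy1b3 (30.5), Npr2 (29.4), Pde3a (18.9), Gucy1a3 (17.7), Pde5a (9.03), Npr3 (3.70), Prkg1 (2.77) and Gucy1a2 (0.180). In wild type, Npr1 lay above Nos3 and Nos3 above Gucy1b3 without overlap, and so did Gucy1a3 over Pde5a, Pde5a over Npr3 and Prkg1 over Gucy1a2. The neighbours Gucy1b3 and Npr2, Npr2 and Pde3a, Pde3a and Gucy1a3, and Npr3 and Prkg1 overlapped there. In heterozygotes Npr1 and Nos3 overlapped too, and Nos3, at a mean of 30.6 FPKM, overlapped Gucy1b3 (31.6 FPKM) and lay below the mean of Npr2 (31.0 FPKM).

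Nos3 (ENSMUSG00000028978, chr5:24364810-24384474 on the forward strand), the source of endothelial nitric oxide, had 47.0, 66.5 and 62.5 FPKM in wild type (replicates 1 to 3 in this order), against 40.8, 11.8 and 39.2 FPKM in heterozygotes. Every heterozygote library was below every wild-type one, heterozygote replicate 2 by far the most. The means were 58.7 ± 10.3 and 30.6 ± 16.3 FPKM (SD, n = 3 each), so that heterozygotes stood at 52.1% of wild type. Limma gave a log2 fold change of -1.09 with an SE of 0.47, a 95% interval of -2.21 to 0.04 and an adjusted p of 0.77, and an exact two-sided permutation test gave p = 0.1, the smallest that 3 libraries against 3 allow. Without heterozygote replicate 2 it was -0.53 (SE 0.16, limma adjusted p = 0.305), at 68.2% of wild type, and the groups still did not overlap. The values rest on 840 to 5050 reads per library.

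Nos3 was also set against the endothelial markers of the same library, since 7 of the 10 were lowest in heterozygote replicate 2. Relative to the mean log2 level of the 10 markers, Nos3 was at 0.03, 0.59 and 0.50 in wild type and at -0.05, -1.06 and -0.16 in heterozygotes. The difference was -0.80 on the log2 scale, a ratio of 0.576, with no overlap (exact permutation p = 0.1, 0.35 adjusted over 7 such measures), and -0.48 without heterozygote replicate 2, a ratio of 0.718. In heterozygote replicates 1 and 3 the summed endothelial markers, of which Pecam1 is the largest, lay within the wild-type range. Their mean log2 level was 5.40 and 5.46 there, just below the 5.47 to 5.53 of wild type, and Egfl7 and Esam were lower in every heterozygote library. Without heterozygote replicate 2, Kdr and Emcn also lay below wild type without overlap, at 71.3% and 80.6% of it. Nos3 then stood at 68.2%. Pecam1, Cdh5, Tek, Tie1, Vwf and Cldn5 overlapped, with Cldn5 at 156.9% of wild type. The choice of marker mattered: Nos3 was lower without overlap relative to 5 of the 10 (Cdh5, Tek, Tie1, Esam and Cldn5), and the differences ran from -1.50 (Cldn5) to -0.24 (Pecam1). Relative to Pecam1, Kdr, Vwf, Egfl7 and Emcn the groups overlapped. How often other genes separate the groups relative to these markers is not given here. As a share of the junction gene Cdh5, Nos3 was at 58.9%, 87.9% and 77.3% in wild type and at 53.4%, 22.3% and 49.2% in heterozygotes. As a share of Pecam1, another junction gene, it was at 11.1%, 17.9% and 16.4% and at 10.9%, 16.3% and 11.1%, which overlapped. With the endothelial marker level as a covariate, chosen after seeing the data, the log2 fold change of Nos3 was -0.43, and with the white adipocyte level as covariate -1.20 (limma adjusted p = 0.116). The limma adjusted p of Nos3 ran from 0.116 to 0.9999 over the alternatives tried.

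The antisense RNA Gm15587 overlaps Nos3 over 17423 bases. It had 1.34, 2.04 and 2.13 FPKM in wild type, against 0.816, 0.277 and 0.466 FPKM in the heterozygotes, without overlap and in the direction of Nos3. The library kit is not described as keeping strand, so reads of the pair, and of Npr2 and its antisense RNA Gm12473 (6.30 to 10.5 FPKM), cannot be told apart. Of the other genes that overlap Nos3, Atg9b shared 294 bases and was at no more than 1.604 FPKM. The antisense RNAs at Npr1 (Gm16048) and Pde3a (Gm28523) were at no more than 1.07 and 2.76 FPKM, and Cstf2t, which shares 4233 bases of the span of Prkg1 on the opposite strand, was at 7.80 to 8.93 FPKM.

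**Figure D2:**
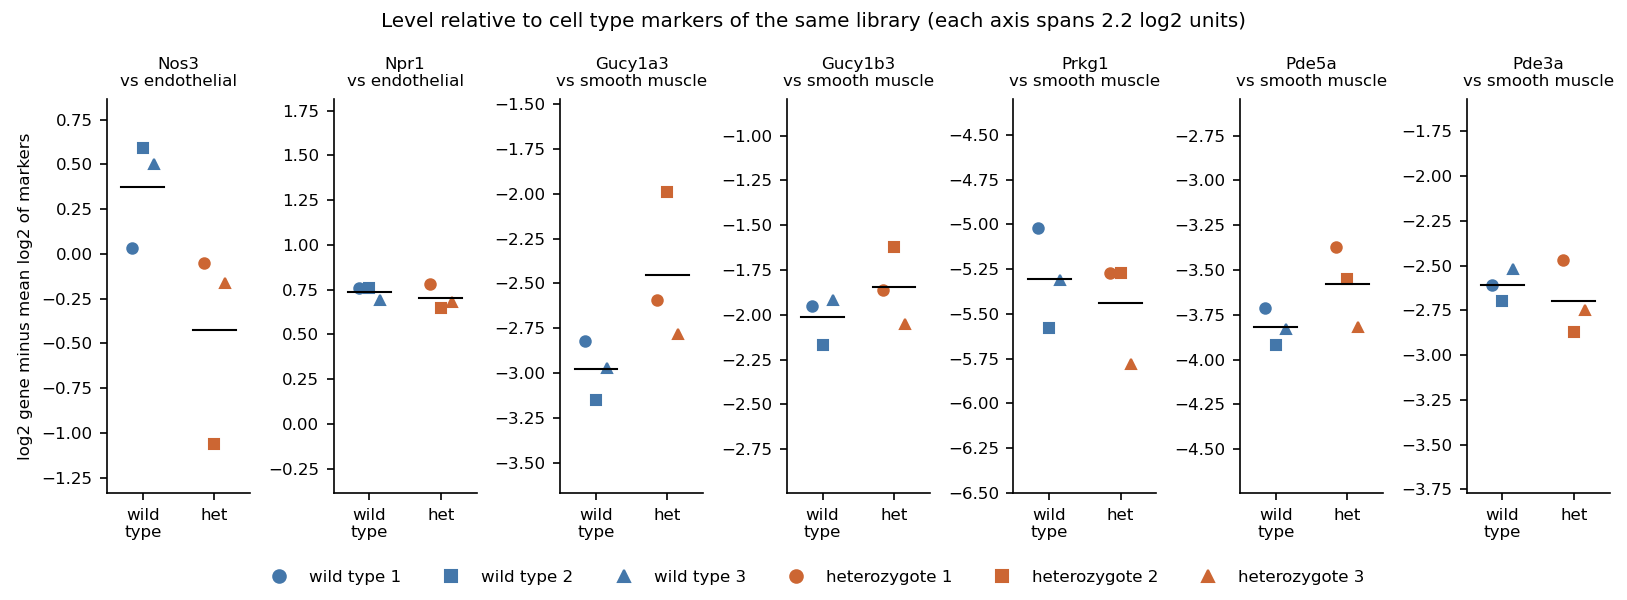
Log2 level of 7 genes minus the mean log2 level of the 10 endothelial or 10 smooth muscle markers in the same library (vertical axis, FPKM + 0.1), with the group mean as a line. Nos3 lies lower in every heterozygote library than in any wild-type one and Gucy1a3 higher, while the Npr1 values of the 6 libraries lie between 0.65 and 0.78. How often other genes separate the groups on this measure is not given here.

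Of the cyclase subunits, the alpha gene Gucy1a3 (ENSMUSG00000033910, chr3:82092427-82145789 on the reverse strand) had 19.7, 13.6 and 12.2 FPKM in wild type, against 22.9, 18.3 and 19.7 FPKM in the heterozygotes. Only wild-type replicate 1 reached the heterozygote values. The means were 15.2 ± 3.95 and 20.3 ± 2.35 FPKM (SD, n = 3 each), with a log2 fold change of 0.42 (SE 0.19, 95% interval -0.03 to 0.87, limma adjusted p = 0.774), which was 0.49 without heterozygote replicate 2 and 0.61 without wild-type replicate 1. Its beta partner Gucy1b3 (ENSMUSG00000028005, chr3:82032006-82074689 on the reverse strand) had 36.0, 27.0 and 25.5 FPKM in wild type, against 38.1, 23.7 and 32.8 FPKM in the heterozygotes. These groups overlapped, at 29.5 ± 5.67 and 31.6 ± 7.28 FPKM (SD, n = 3 each) and a log2 fold change of 0.08 (SE 0.21, limma adjusted p = 0.977). Without heterozygote replicate 2 it was 0.27. The second alpha gene Gucy1a2 (ENSMUSG00000041624, chr9:3532778-3894736 on the forward strand), whose protein can replace the first in the dimer, had 0.165, 0.164 and 0.251 FPKM in wild type, against 0.247, 0.165 and 0.0906 FPKM in the heterozygotes. That corresponds to 11 to 30 reads per library, too few for the test.

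The alpha gene was higher in proportion to the beta gene in every heterozygote library. With 0.1 FPKM added to each, the ratio of Gucy1a3 to Gucy1b3 was 0.547, 0.505 and 0.481 in wild type and 0.602, 0.773 and 0.602 in heterozygotes. The groups did not overlap, and the ratio was 1.28-fold higher in heterozygotes (log2 difference 0.36, exact permutation p = 0.1, 0.15 adjusted over 6 ratios). Without heterozygote replicate 2 it was 1.18-fold higher. Relative to the 10 smooth muscle markers of the library, Gucy1a3 was at -2.82, -3.15 and -2.97 on the log2 scale in wild type and at -2.59, -1.99 and -2.78 in heterozygotes, again without overlap (difference 0.53, exact permutation p = 0.1, 0.35 adjusted over 7 measures). Without heterozygote replicate 2 that difference was 0.30. Gucy1b3 differed by 0.17 on this measure, with overlap (exact permutation p = 0.4). Both genes share chromosome 3 with Palmd, at 34.8 Mb from it, as do Pde5a at 5.76 Mb and Npr1 at 26.5 Mb.

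**Figure D3:**
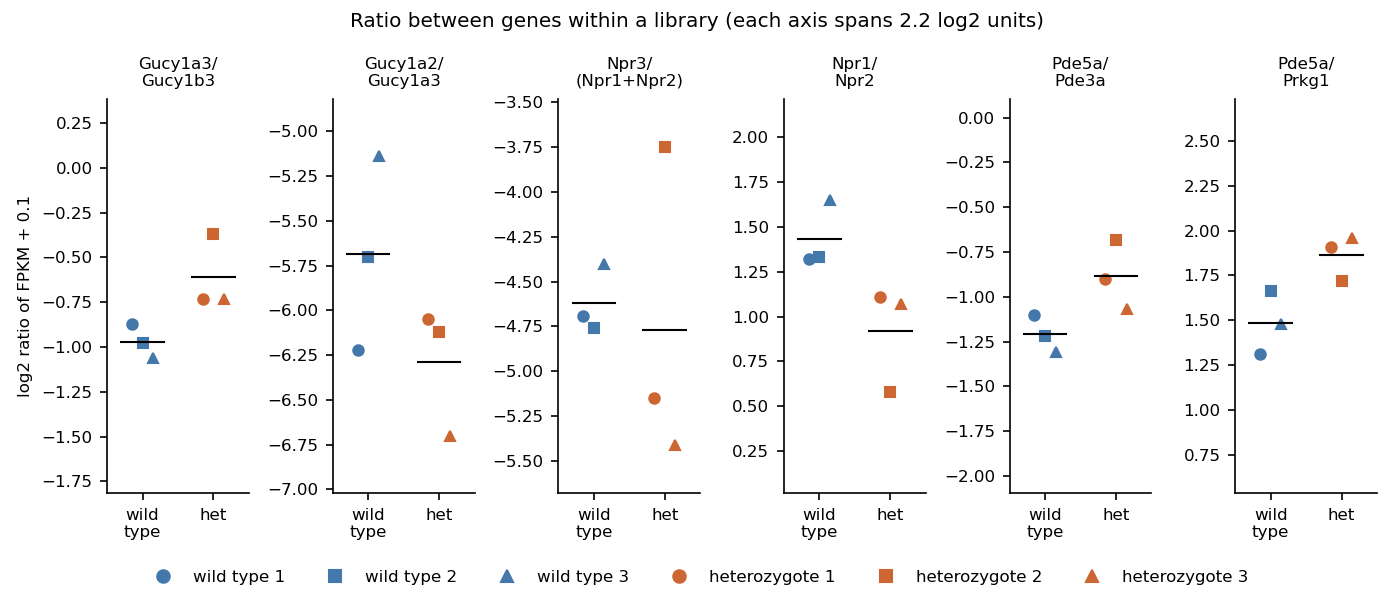
Log2 ratio between pairs of the genes within each library (vertical axis, FPKM + 0.1), with the group mean as a line. Gucy1a3/Gucy1b3, Pde5a/Pde3a and Pde5a/Prkg1 are higher and Npr1/Npr2 lower in all 3 heterozygote libraries, and heterozygote replicate 2 is the extreme library in 3 of these 4 ratios. For each of the 4 the exact permutation p is 0.1 (0.15 adjusted over 6 ratios). That is the smallest p that 3 libraries against 3 allow, so that none could pass 0.05. How often ratios of other gene pairs separate the groups is not given here.

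The kinase gene Prkg1 (ENSMUSG00000052920, chr19:30564489-31765033 on the reverse strand) had 4.196, 2.44 and 2.34 FPKM in wild type, against 3.48, 1.80 and 2.37 FPKM in the heterozygotes. Replicate 1 was the highest in both groups, and the ranges overlapped. Its log2 fold change was -0.17 (SE 0.24, limma adjusted p = 0.953) and -0.01 without heterozygote replicate 2. Relative to smooth muscle markers the difference was -0.14 (exact permutation p = 0.7).

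Among the peptide receptors, Npr1 (ENSMUSG00000027931, chr3:90450591-90465866 on the reverse strand), the receptor for the atrial and B-type peptides, had 78.2, 74.7 and 71.2 FPKM in wild type, against 72.8, 38.8 and 70.1 FPKM in the heterozygotes. Heterozygote replicate 2 alone was low. The means were 74.7 ± 3.54 and 60.6 ± 18.9 FPKM (SD, n = 3 each), and limma gave a log2 fold change of -0.35 with an SE of 0.25, a 95% interval of -0.95 to 0.25 and an adjusted p of 0.888. It was -0.06 without that library. Npr1 kept nearly the same proportion to the mean log2 level of the endothelial markers, at 0.76, 0.76 and 0.69 on the log2 scale in wild type and 0.78, 0.65 and 0.68 in heterozygotes (difference -0.03, exact permutation p = 0.6). Nos3, against the same mean, ranged from -1.06 to 0.59. Single markers moved apart in heterozygote replicate 2, with Pecam1 at 72.0 FPKM (352 to 424 in the others) and Kdr at 14.55 FPKM (3.43 to 5.42). The proportion of Npr1 to each single marker was therefore not constant.

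Npr2 (ENSMUSG00000028469, chr4:43631935-43651244 on the forward strand), the C-type peptide receptor, had 31.2, 29.6 and 22.6 FPKM in wild type, against 33.8, 25.9 and 33.3 FPKM in the heterozygotes. The log2 fold change was 0.16 (SE 0.17, limma adjusted p = 0.935), and 0.28 without heterozygote replicate 2, when the groups no longer overlapped. The ratio of Npr1 to Npr2 was 2.50, 2.52 and 3.14 in wild type and 2.15, 1.49 and 2.1 in heterozygotes. It was lower in every heterozygote library, at 0.699 of wild type (exact permutation p = 0.1, 0.15 adjusted over 6 ratios) and at 0.786 without heterozygote replicate 2. The clearance receptor Npr3 (ENSMUSG00000022206, chr15:11839896-11907287 on the reverse strand) had 4.13, 3.75 and 4.35 FPKM in wild type, against 2.90, 4.70 and 2.33 FPKM in the heterozygotes, and unlike the rest it was highest in heterozygote replicate 2. The log2 fold change was -0.27 (SE 0.20, limma adjusted p = 0.899) with all libraries and -0.49 (SE 0.12, limma adjusted p = 0.256) without that library, when heterozygotes stood at 64.2% of wild type without overlap. In proportion to the sum of both cyclase receptors, Npr3 was at 0.0386, 0.0369 and 0.0475 in wild type and at 0.0281, 0.0741 and 0.0235 in heterozygotes. The groups overlapped (log2 difference -0.16, exact permutation p = 0.8), and the difference was -0.66 without heterozygote replicate 2.

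The phosphodiesterase genes varied together across libraries and overlapped between genotypes. Pde5a (ENSMUSG00000053965, chr3:122728947-122859374 on the forward strand) had 10.5, 7.95 and 6.71 FPKM in wild type, against 13.3, 6.16 and 9.52 FPKM in the heterozygotes, with a log2 fold change of 0.15 (SE 0.28, limma adjusted p = 0.964) and of 0.41 without heterozygote replicate 2. Pde3a (ENSMUSG00000041741, chr6:141249269-141507448 on the forward strand) had 22.7, 18.7 and 16.8 FPKM, against 25.0, 9.93 and 20.1 FPKM, with a log2 fold change of -0.16 (SE 0.32, limma adjusted p = 0.968) that was 0.21 without that library. Both genes had wild-type replicate 1 and heterozygote replicate 1 as their highest libraries and heterozygote replicate 2 as their lowest. The ratio of Pde5a to Pde3a was 0.466, 0.429 and 0.403 in wild type and 0.535, 0.624 and 0.477 in heterozygotes, higher without overlap and 1.26-fold (exact permutation p = 0.1, 0.15 adjusted over 6 ratios), or 1.17-fold without heterozygote replicate 2. The ratio of Pde5a to the kinase gene was 2.47, 3.16 and 2.80 in wild type and 3.75, 3.29 and 3.9 in heterozygotes, 1.30-fold higher without overlap (exact permutation p = 0.1, 0.15 adjusted), and 1.37-fold without that library.

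**Figure D4:**
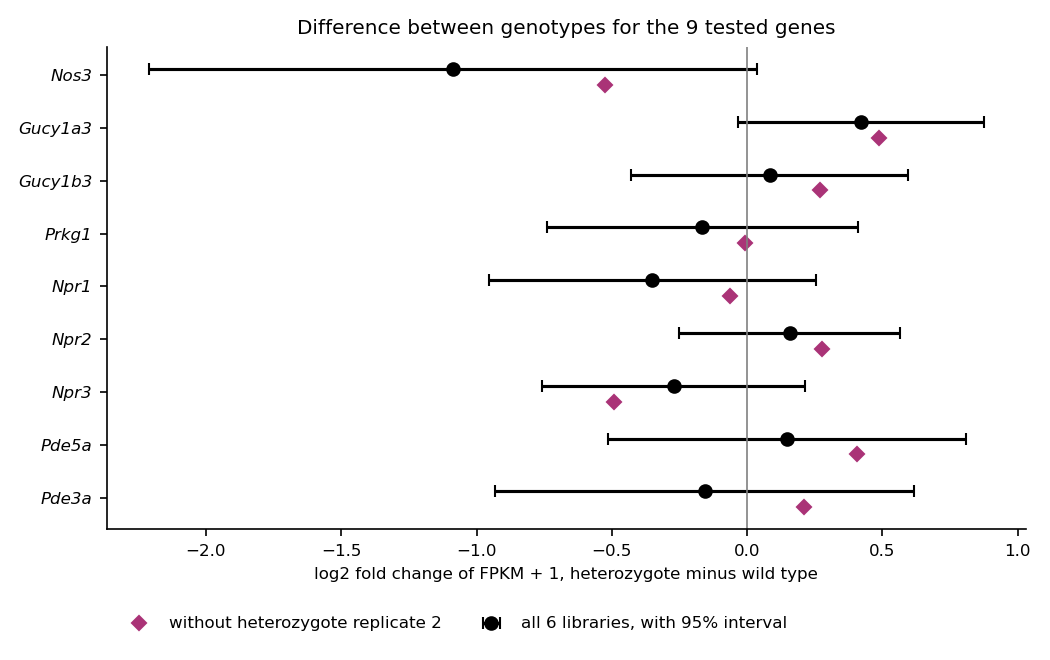
Log2 fold change of FPKM + 1, heterozygote minus wild type (horizontal axis), for the 9 tested genes, as circles with 95% intervals for all 6 libraries and as diamonds without heterozygote replicate 2. Every interval holds 0, and Pde3a changes sign when that library is left out.

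Across the 6 libraries, the levels of Pde3a, Pde5a and Gucy1b3, and by rank those of Npr2 and Prkg1, went with the cell type markers. How many of the other tested genes do so as closely was not counted, so the relations are not shown to be particular to these genes. Pearson's r with the mean log2 level of the white adipocyte markers was -0.957 for Pde5a (exact permutation p = 0.00417, 0.025 adjusted over 18 relations), -0.932 for Pde3a (exact p = 0.00278, adjusted 0.025) and -0.924 for Gucy1b3 (exact p = 0.00556, adjusted 0.025). Spearman's rank correlation was -0.943 for each (exact p = 0.0167, adjusted 0.0375). Leaving out heterozygote replicate 2 and wild-type replicate 3, the libraries farthest from the median, r was -0.941, -0.856 and -0.809. With smooth muscle markers r was 0.961 for Pde3a (exact p = 0.00278, adjusted 0.025), 0.876 for Gucy1b3 (exact p = 0.0111, adjusted 0.04) and 0.862 for Pde5a (exact p = 0.0181, adjusted 0.0542). Spearman's rank correlation was 0.943 for each (exact p = 0.0167, adjusted 0.0375), and r was 0.809, 0.959 and 0.812 without the libraries left out above. Npr2 had an r of -0.861 with the adipocyte markers (exact permutation p = 0.0292, adjusted 0.075), a Spearman's rank correlation of -0.943 (exact p = 0.0167, adjusted 0.0375) and an r of -0.866 without those libraries. Prkg1 had an r of 0.767 with the smooth muscle markers (exact permutation p = 0.0639, adjusted 0.115), a Spearman's rank correlation of 0.943 (exact p = 0.0167, adjusted 0.0375) and an r of 0.657 without those libraries. For Nos3 and the adipocyte markers r was -0.494 (exact permutation p = 0.351, adjusted 0.372) and Spearman's rank correlation 0.03 (exact p = 1), and r was 0.73 without those libraries, so that no relation held. The relations pool both genotypes, and 3 libraries per genotype are too few to test them within one. What part the mix of tissue has in them was not tested.

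By likeness of level over the 6 libraries (Pearson's r of log2 FPKM + 1), the tested genes nearest to Nos3 were Gprc5a (0.9994), the calcium channel gene Trpv4 (0.997) and the receptor gene Fgfr3 (0.9966). Those nearest to Npr1 were Vipr1 (0.9991), Sulf1 (0.9987) and the endothelial transcription factor gene Klf2 (0.9969). Nearest to Gucy1b3 were Zfp334 (0.9995), Nup85 (0.9966) and the non-muscle myosin gene Myh10 (0.9966), and nearest to Prkg1 were B3galt6 (0.9976), the kinase gene Jak2 (0.9974) and Trak2 (0.9966). With 6 points such values are common: 382 tested genes had an r over 0.95 with Npr1, 264 with Gucy1b3, 188 with Nos3 and 101 with Prkg1.

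Around these 10 genes, a list of 69 others of the pathway gave 43 tested genes and 0 calls by limma (smallest adjusted p = 0.597). The log2 fold change was above 0 for 17 and below 0 for 26, with a median of -0.03, and without heterozygote replicate 2 above 0 for 21 with a median of -0.02. An unadjusted limma p under 0.05 was found for 2, Hsp90aa1 and Rgs2. Groups lay apart for 5 of the 43 (11.6%, beside 12.9% of all tested genes): Calm2 and Pde1b were higher, and Hsp90aa1 and Furin were among those lower in heterozygotes.

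Of the genes for substrate and cofactors of nitric oxide synthase, 7 of 13 were tested, 6 with a log2 fold change above 0, or 2 without heterozygote replicate 2. Ddah2, which degrades the inhibitor dimethylarginine, was at 41.2 ± 3.30 and 50.5 ± 11.2 FPKM (SD, n = 3 each; log2 fold change 0.26, limma adjusted p = 0.888), and at 0.46 on the log2 scale without heterozygote replicate 2. The arginine transporter gene Slc7a1 had a log2 fold change of -0.38, or -0.11 without that library. The other synthases were scarcely present: Nos1 was at 0.0830 to 0.145 FPKM and Nos2 at 0.0993 to 1.23 FPKM, with its highest value in heterozygote replicate 2.

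All 8 genes for partners of Nos3 were tested, 4 above and 4 below 0. Hsp90aa1, a chaperone that binds the synthase and is also a heat shock gene, had 112.5, 153 and 208 FPKM in wild type, against 77.4, 69.8 and 94.95 FPKM in the heterozygotes. Every heterozygote library was lower, and the log2 fold change was -0.93 (SE 0.25, limma adjusted p = 0.597) and -0.83 without heterozygote replicate 2. Nos3 was lower too, and a link between these genes was not tested. Nosip, which binds the synthase, was at 14.5 ± 1.54 and 17.7 ± 1.53 FPKM (log2 fold change 0.28, limma adjusted p = 0.77), with overlap. The caveolar inhibitor gene Cav1 was at 294 ± 30.2 and 269 ± 25.1 FPKM, and the kinase gene Akt1 at 63.2 ± 2.23 and 61.9 ± 15.2 FPKM. The calmodulin genes Calm2 and Calm3 had log2 fold changes of 0.22 and 0.12 at means in wild type of 205 and 172 FPKM.

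The peptides themselves were close to absent, as Nppa, Nppb and Nppc stood at no more than 0.127, 0.213 and 0.222 FPKM in any library, that is at no more than 4 reads. Of the 7 genes for peptides and their processing, 2 were tested: the protease genes Furin (log2 fold change -0.13) and Mme (-0.26). Of 10 genes for other guanylate cyclases and for modifiers of the soluble cyclase, 4 were tested, the modifiers Thbs1, Cd47, Cyb5r3 and Adh5. The log2 fold change of each was below 0, or of 2 without heterozygote replicate 2. Thbs1, whose product blunts the response to nitric oxide, had 68.2, 44.2 and 47.2 FPKM in wild type, against 47.5, 10.9 and 34.7 FPKM in the heterozygotes (log2 fold change -0.96, limma adjusted p = 0.824), with overlap. With heterozygote replicate 2 left out it was -0.35. Cyb5r3, which reduces the cyclase heme, was at 130.1 ± 13.7 and 119.0 ± 27.9 FPKM.

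Of 12 effector genes, 9 were tested, 3 above 0, or 8 without heterozygote replicate 2. Rgs2, a brake on receptor-driven contraction that the kinase activates, had 20.4, 35.2 and 44.4 FPKM in wild type, against 11.0, 23.7 and 16.4 FPKM in the heterozygotes. Only heterozygote replicate 2 overlapped wild type, and the log2 fold change was -0.92 (SE 0.36, limma adjusted p = 0.744) and -1.18 without it. Rgs4, of the same family, had a log2 fold change of 0.67, or 0.88 without that library. The substrates Vasp (58.3 and 56.2 FPKM on average) and Ppp1r12a (56.5 and 57.7 FPKM) had ones of -0.07 and -0.01. Of 19 genes for breakdown and export of cyclic nucleotides, 13 were tested, 4 above 0. Pde1b was at 2.48 ± 0.286 and 2.98 ± 0.0998 FPKM (log2 fold change 0.20, limma adjusted p = 0.811), higher without overlap, while Pde4d and Pde4b had log2 fold changes of -0.28 and -0.25.

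**Figure D5:**
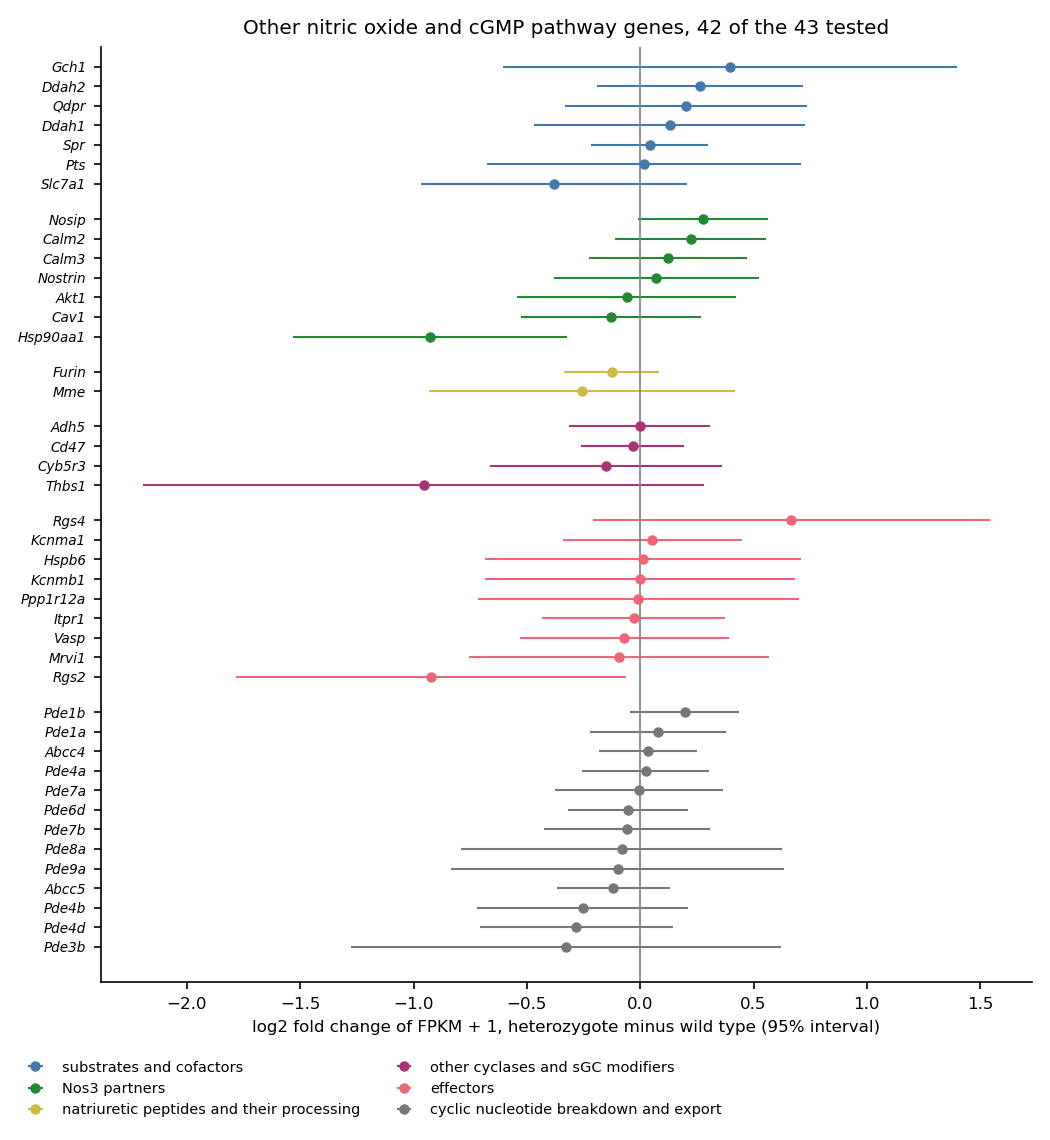
Log2 fold change of FPKM + 1, heterozygote minus wild type, with 95% intervals (horizontal axis), for 42 of the 43 tested genes of the pathway list, coloured and grouped by role. The intervals of Hsp90aa1 and Rgs2 leave out 0 before adjustment, and 25 of the 42 points lie below 0.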

How the data were processed

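RNA of 6 aortic libraries (3 per genotype) had been selected on poly-T beads and primed with random hexamers, per the labels' protocols. The deposited files hold FPKM-type values calculated by the authors, a unit read from the values: 95.1% to 95.6% of low values (under 50 reads) were whole reads within 0.01 of a read after multiplication by gene lengths of GENCODE M21, which held 29687 of the 29752 identifiers. HISAT2 2.1.0, Bowtie2 2.2.3, TopHat2 and GRCm38 are named, without roles, per the submitters' processing notes. For the counting tool and annotation: not given in the sources used here. Groups and replicate numbers came from sample titles. File headers number the heterozygote libraries differently.

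Genes that reached 1 FPKM in 3 or more libraries were tested by limma 3.58.1 (R 4.3.3) with a mean-variance trend on log2(FPKM + 1), all 6 libraries, no covariate, with Benjamini-Hochberg adjustment over 12620 genes and a threshold of 0.05. The pseudocount understates changes of low genes. Single measures were compared by exact two-sided permutation, which for 3 libraries against 3 cannot give a p below 0.1 and so cannot pass the threshold. Python 3.11.15, numpy 2.4.6, pandas 2.3.3 and matplotlib 3.10.9 were used. The procedure was tested on simulated data. Promoters came from RefSeq (GRCm38.p6), and gene positions from GENCODE M21.

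The 10 genes, the pathway list and the marker lists were chosen with earlier results of these data known. Named were the 10 genes, Palmd, the 12 pathway genes with the smallest p (none passed), pathway genes with a mean of at least 50 FPKM and, for 4 genes, the 3 tested genes most alike. Nos1, Nos2, Nppa, Nppb, Nppc, Mme, Cd47, Adh5 and antisense RNAs were added after their values were seen. Of the genes this rule names, 1 is not reported here.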

Additional observations from a re-analysis of the deposited data

How the results depend on the processing

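None of the 9 tested genes and none of the 43 pathway genes was called by limma in any of the 13 alternatives. Counts over all tested genes were 0 too, except 1 with the endothelial covariate and 0 to 1 on leaving out each library in turn. The replicate block called 0 genes, with 738 unadjusted p under 0.05. Same-numbered libraries deviated from their groups with correlations of 0.51, -0.09 and -0.34, while wild-type replicate 3 and heterozygote replicate 2 reached 0.55. Such correlations take in every difference between libraries, so whether the numbers pair them was not settled. Unadjusted p under 0.05 split into 512 higher and 308 lower, but 407 and 429 under median-of-ratios scaling and 427 and 402 under voom. The log2 fold changes of Nos3, Gucy1a3, Npr1, Npr2 and Npr3 kept their sign in every alternative, with leave-one-out ranges of -1.38 to -0.53 for Nos3, 0.29 to 0.61 for Gucy1a3, -0.51 to -0.06 for Npr1, 0.02 to 0.28 for Npr2 and -0.49 to -0.10 for Npr3. With the endothelial covariate, however, Npr1 was at -0.00065. The others crossed 0 on leaving out libraries: Gucy1b3 from -0.063 to 0.27, Prkg1 from -0.35 to 0.040, Pde5a from -0.093 to 0.41, Pde3a from -0.42 to 0.21, Akt1 from -0.18 to 0.16, Cyb5r3 from -0.28 to 0.058, Vasp from -0.18 to 0.12 and Ppp1r12a from -0.26 to 0.26. The endothelial covariate gave 0.035 for Prkg1, 0.29 for Pde3a, 0.21 for Akt1, 0.11 for Cyb5r3, 0.17 for Vasp and 0.33 for Ppp1r12a, and a median over the 9 tested genes of 0.29. That median ran from -0.23 to 0.21 on leaving out libraries, and the pathway median from -0.076 to 6.7e-05. Within-library differences that crossed 0 were Npr3/(Npr1+Npr2), from -0.66 to 0.16, and Prkg1 and Pde3a relative to smooth muscle markers, from -0.28 to 0.035 and from -0.20 to 0.002. The cause was not tested. The white adipocyte and endothelial covariates were chosen after seeing the data. Gucy1a2, at 11 to 30 reads per library, was too low to compare.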
